A study of Homo sapiens with 8 samples.

Results

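Genes of the interferon response were followed across 4 lines of MEL202, an established human uveal melanoma cell line with a mutant and a wildtype allele of SF3B1, which encodes a splicing factor. The group covers antiviral effectors induced by interferon, RNA sensors, enzymes of ISG15 conjugation and ADP-ribosylation, interferon receptors, and transcription factors of the pathway. Its 44 symbols were chosen by function, with earlier results of these data known. A locus of that name was found for 40 of them, and where a symbol had several, the locus with the highest mean was taken. Of these, 32 reached a mean level of 1 across the 8 libraries and were tested among 11893 named genes, out of 32087 loci in all. IFI16, IFI27, IFI44L, IFITM1, OAS1, OAS2, OASL and BST2 lay under that minimum, and IFIT1, DDX58, DTX3L and SAMD9 were not analysed here.

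The lines were parental MEL202 cells, a line in which the mutant SF3B1 allele was knocked out (the knockout line), the mutant degron line, whose mutant SF3B1 protein is fused to a destabilising domain, and the wildtype degron line, whose wildtype SF3B1 protein is. Each was sequenced with and without Shld, a small ligand that protects the destabilising domain, so that its withdrawal leads to loss of the tagged protein. All cells share the MEL202 background. Each combination had 1 library, so the pair of libraries of a line served as the replicates of that line, and what belongs to a genotype and what belongs to the derivation of a line cannot be told apart. The labels give 2 days for the knockout and degron lines. The column names give 4 days without Shld for the parental and knockout cells, and name a destabilising domain on wildtype SF3B1 in the knockout line that the labels do not mention.

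Interferons bind receptors at the cell surface and act through JAK kinases and the complex ISGF3, which holds STAT2 and IRF9 and binds interferon-stimulated response elements (ISREs) in promoters. The genes it switches on include antiviral effectors, cytosolic RNA sensors that can start a new round of interferon production, and the ubiquitin-like modifier ISG15 with its conjugation enzymes. Many tumour lines keep some of these genes on without added interferon, and no interferon treatment is named for these cells.

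The promoters of several members carry the ISRE, searched for as GAAA, 2 bases of any kind and GAAA again, on both strands, from 250 bases before to 50 bases after the annotated start. RefSeq promoters (GRCh38.p14) were matched by symbol for 33 of the 44 members. A match was present for 22 of these 33 genes (66.7%), against 1195 of all 27305 symbols with a promoter (4.38%). The stretches below were picked from members with a match wholly before the annotated start, so all of them hold one. They come from those furthest below parental cells in the knockout line, and from those not called with the smallest differences in that comparison. All stretches are given 5′ to 3′ on the strand of the gene, with matches that lie wholly within them in capitals. A further IFIT5 match, starting at position -4 from the annotated start, runs past the end of its stretch and is in lower case. The first 4 belong to genes that were lower in the knockout line: IFI6 (chr1:27672261-27672363, minus strand), IFITM3 (chr11:320871-320927, minus strand), ISG20 (chr15:88638932-88638971, plus strand) and OAS3 (chr12:112938316-112938473, plus strand).
IFI6: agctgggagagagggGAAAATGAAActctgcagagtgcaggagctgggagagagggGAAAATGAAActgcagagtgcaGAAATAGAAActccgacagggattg
IFITM3: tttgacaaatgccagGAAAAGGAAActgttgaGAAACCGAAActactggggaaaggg
ISG20: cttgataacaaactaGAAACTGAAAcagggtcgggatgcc
OAS3: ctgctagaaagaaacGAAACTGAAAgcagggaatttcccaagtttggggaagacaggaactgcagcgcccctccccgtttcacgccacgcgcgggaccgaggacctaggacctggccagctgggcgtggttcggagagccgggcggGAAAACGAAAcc

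The next 3 belong to genes that did not pass the test in that comparison, with the match on the opposite strand in each: IFIT5 (chr10:89414508-89414567, plus strand), IFIT3 (chr10:89327826-89327899, plus strand) and MX1 (chr21:41431839-41431878, plus strand).
IFIT5: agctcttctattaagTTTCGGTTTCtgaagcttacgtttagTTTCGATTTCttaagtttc
IFIT3: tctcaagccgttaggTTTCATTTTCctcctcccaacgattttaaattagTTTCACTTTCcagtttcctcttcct
MX1: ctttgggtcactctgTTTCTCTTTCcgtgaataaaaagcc

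Within this window the element was present in genes of both kinds. Of the members with a promoter entry, 9 of the 11 that were lower in the knockout line held a match, as did 6 of the 13 tested members that were not lower and 7 of the 9 that were not tested. IFI35 and HERC6, both lower in the knockout line, held no match. No promoter entry was matched for the other members lower in the knockout line: MX2, IFITM2, IFIT2, DHX58, USP18, IRF2 and IRF7. The gamma-activated site TTCNNNGAA, an element of the interferon gamma response, was present for 9 of the 33 members (27.3%) and 9.38% of all symbols. Among the 274 tested genes outside the group whose promoter held an ISRE match, 20.8% were lower in the knockout line than in parental cells, and among the 7285 without one 19.8% were, so for genes outside the group a match in this window went with nearly the same share.

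Values are FPKM-type levels (fragments per transcript length and library size) that the authors rescaled so that the 75th percentile of each library was 10. The sum of values per library ran from 762679 to 961994, and read depth is unknown. The SF3B1 level with and without Shld was 266 and 240 for parental cells, 158 and 138 for the knockout line, 248 and 252 for the mutant degron line, and 188 and 201 for the wildtype degron line. These are RNA levels, and whether the tagged protein was lost on withdrawal cannot be read from them.

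The members spanned a wide range of levels in parental cells. STAT2, a subunit of ISGF3, was the most abundant at 336 with and 350 without Shld, and IFITM2, a membrane protein that restricts virus entry, followed at 269 and 302. IRF9, the DNA-binding subunit of ISGF3, stood at 19.004 and 17.8. At the other end, OAS1 was listed at 0 in 7 of the 8 libraries, and OAS2, IFI16 and IFI44L did not exceed 0.129 in any library. IFI27 ranged from 0.125 to 1.89 with no order by line. All 22 interferon ligand genes that had a locus, of 24 listed, were listed at 0 in every library.

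Among the effectors, IFI6, a mitochondrial and endoplasmic reticulum protein, gave 24.5 with and 26.7 without Shld in parental cells, and, likewise with Shld first here and below, 3.54 and 5.05 in the knockout line, 5.96 and 7.41 in the mutant degron line, and 34.1 and 43.5 in the wildtype degron line. The pairs of the 4 lines did not overlap, and both the knockout and mutant degron pairs lay far below the others. IFI35, a leucine zipper protein induced by interferon, gave 33.4 and 35.2 in parental cells, 7.20 and 5.36 in the knockout line, 14.6 and 15.1 in the mutant degron line, and 39.5 and 43.8 in the wildtype degron line. IFITM3, the best known entry restriction factor of its family, gave 64.9 and 70.3, 15.7 and 18.4, 49.1 and 50.6, and 99.1 and 115 in the same order. These 3 genes shared 1 order of lines with no overlap: knockout lowest, then mutant degron, parental and wildtype degron.

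MX2, a dynamin-like GTPase that blocks nuclear import of viral genomes, stood at 5.55 and 6.08 in parental cells, 0.155 and 0.152 in the knockout line, 1.63 and 1.56 in the mutant degron line, and 3.49 and 3.03 in the wildtype degron line. Among the tested members it had the lowest level in the knockout line relative to parental cells, 37.9 times lower by the means. That ratio rests on knockout values far under 1, so its size is uncertain. Unlike IFI6, MX2 was below parental in all 3 derived lines. ISG20, an exonuclease that degrades viral RNA, gave 12.3 and 13.4, 2.05 and 4.01, 5.39 and 3.84, and 12.6 and 14.1 in the order parental, knockout, mutant degron and wildtype degron. OAS3, which makes the 2-5A messenger that activates RNase L, gave 1.57 and 2.03, 0.289 and 0.130, 2.02 and 2.23, and 3.41 and 2.05. OAS3 was low in the knockout line alone, and its values in the other 3 lines overlapped.

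**Figure D1:**
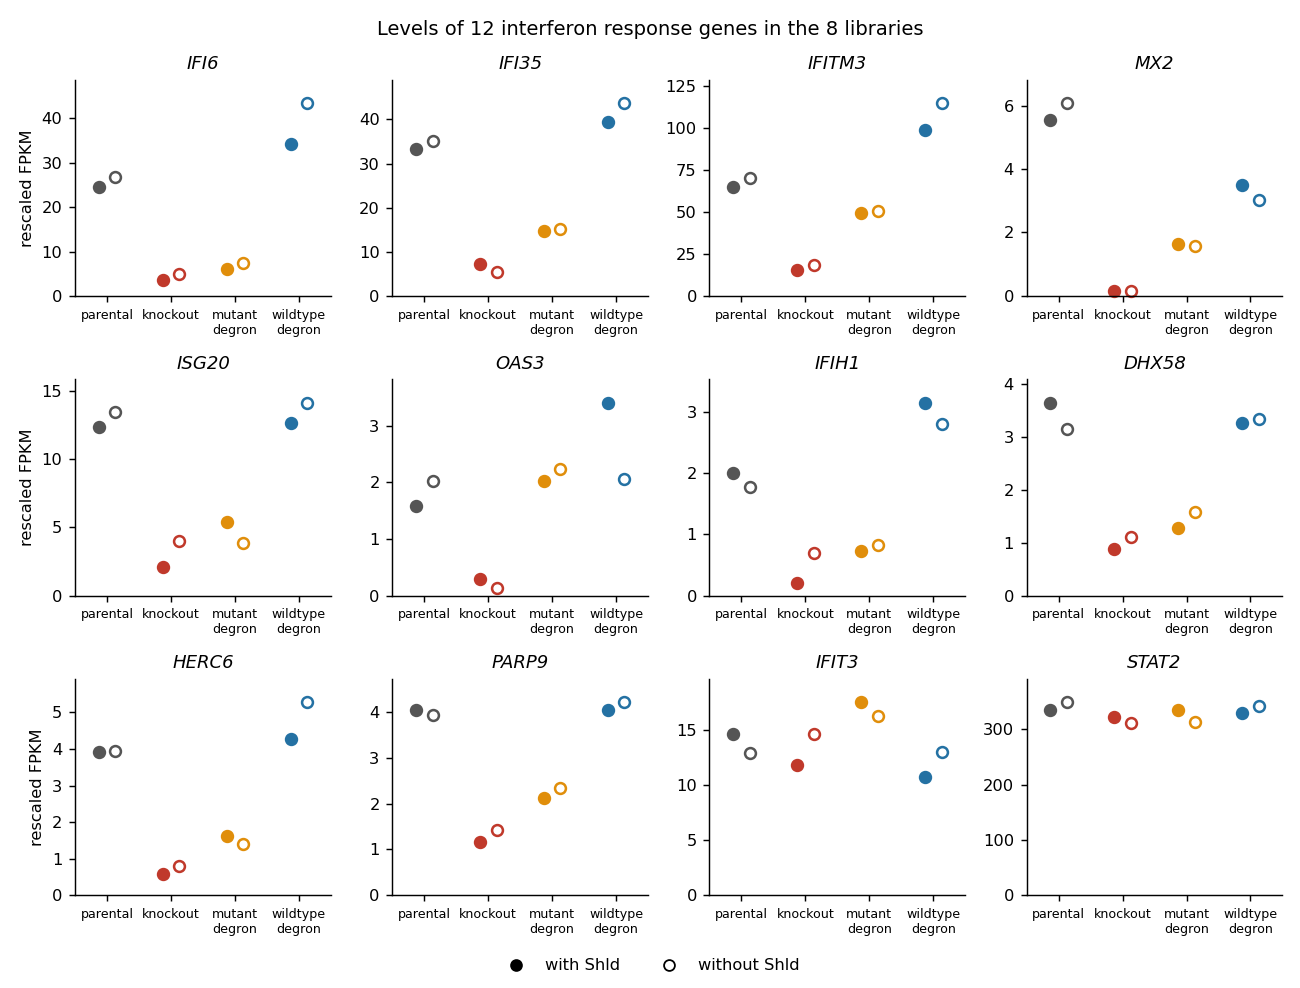
Levels of 12 members in rescaled FPKM (vertical axes, each from 0) in the 4 lines, with 1 point per library, filled with Shld and open without. In 9 of the 10 genes from IFI6 to PARP9 both knockout and both mutant degron libraries lie below all parental and wildtype degron libraries, OAS3 being the exception, while IFIT3 and STAT2 show no such order.

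The RNA sensors and the ISG15 and ADP-ribosylation enzymes were mostly low in the same 2 lines. IFIH1, which encodes the double-stranded RNA sensor MDA5, stood at 2.00 and 1.78 in parental cells, 0.213 and 0.694 in the knockout line, 0.727 and 0.831 in the mutant degron line, and 3.15 and 2.80 in the wildtype degron line. DHX58, the regulator LGP2 of the same family, gave 3.65 and 3.15, 0.878 and 1.11, 1.27 and 1.57, and 3.26 and 3.33. HERC6, a HECT-type ubiquitin ligase, gave 3.91 and 3.93, 0.570 and 0.789, 1.62 and 1.39, and 4.28 and 5.28. For each of these 3 genes the 4 knockout and mutant degron libraries lay below the other 4.

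PARP9, an ADP-ribosyltransferase that works with DTX3L, stood at 4.05 and 3.93 in parental cells, 1.16 and 1.43 in the knockout line, 2.13 and 2.34 in the mutant degron line, and 4.04 and 4.21 in the wildtype degron line. ISG15, the modifier itself, varied far less, from 11.7 in the knockout line without Shld to 19.001 in parental cells with Shld, and its wildtype degron values (14.2 and 14.3) lay among those of the mutant degron line (13.4 and 16.4). USP18, which removes ISG15 and dampens receptor signalling, was 9.17 and 9.19 in parental cells, 6.12 and 5.13 in the knockout line, 5.88 and 6.11 in the mutant degron line, and 9.86 and 10.1 in the wildtype degron line. By the means, HERC6 was 5.77 times and PARP9 3.07 times lower in knockout than in parental cells. The other ISG15 and ADP-ribosylation genes tested differed less there: USP18 by 1.63, HERC5 by 1.55, ISG15 by 1.37 and PARP14 by 1.24 times.

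Among the regulators at the top of the pathway, STAT2 and IRF9 were more even, while IRF7 was low in the knockout and mutant degron lines. STAT2 stayed between 311 and 350, and IRF9 between 16.9 and 20.8, in all 8 libraries. IRF7, which amplifies type I interferon production, stood at 5.34 and 5.53 in parental cells, 2.83 and 3.54 in the knockout line, 3.41 and 3.13 in the mutant degron line, and 5.77 and 8.58 in the wildtype degron line. IFNAR1, a subunit of the type I interferon receptor, ran the other way, with 9.72 and 10.6 in parental cells, 13.2 and 12.4 in the knockout line, 13.3 and 13.5 in the mutant degron line, and 10.3 and 9.96 in the wildtype degron line.

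Comparing the knockout line with parental cells asks what differs where the mutant allele was removed. Of the 32 members tested, 18 were lower and 2 higher in the knockout line (limma, Benjamini-Hochberg adjusted p under 0.05 over all genes), while 20.5% of all genes tested were lower and 17.3% higher. The median difference was -0.42 over the members and -0.04 over all genes (differences of log2(value + 1), which shrink the change of genes with low levels). By role, 9 of 16 effectors were lower and 1 higher, both RNA sensors were lower, 5 of 6 ISG15 and ADP-ribosylation genes were lower, 1 of 2 receptors was higher, and 2 of 6 transcription factors were lower. A difference of -1 or beyond was reached by 11 of 32 members and by 4.18% of all genes.

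The 6 members with the lowest p were MX2, IFI35, IFITM3, IFI6, HERC6 and PARP9. MX2 differed by -2.56 ± 0.13 (standard error of the model, adjusted p = 4.97e-06 by limma) and IFI35 by -2.29 ± 0.13 (adjusted p = 6.13e-06 by limma). IFITM3 differed by -1.93 ± 0.11 and IFI6 by -2.34 ± 0.17, corresponding to means 3.96 and 5.95 times lower than in parental cells. HERC6 and PARP9 differed by -1.55 ± 0.15 and -1.12 ± 0.13. ISG20 (-1.83), OAS3 (-1.21), DHX58 (-1.14), IFI44 (-1.06), IFIH1 (-1.01), IFIT2 (-0.86), IRF7 (-0.63), USP18 (-0.62), HERC5 (-0.57), ISG15 (-0.42), IRF2 (-0.41) and IFITM2 (-0.27) were the other lower members. The 2 higher members were IFNAR1 (+0.30, adjusted p = 0.032 by limma) and ADAR (+0.26, adjusted p = 0.042 by limma), the latter encoding the RNA editing enzyme that marks double-stranded RNA as self.

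Members that did not pass include PARP14 (-0.27 ± 0.10, adjusted p = 0.070 by limma), IFNGR1, a subunit of the interferon gamma receptor (+0.25 ± 0.13), and IRF3 (-0.19 ± 0.09). IFIT3, an RNA-binding partner of IFIT1, differed by -0.06 ± 0.13 with a 95% interval from -0.37 to +0.24, and STAT2 by -0.11 ± 0.08. With any 1 of the 8 libraries left out, 14 members were still called lower each time, and ADAR and IFNAR1 were called in 2 of the 8 omissions, IFITM2 in 1, ISG15 in 4, and IRF2 and IRF7 in 5.

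The mutant degron line, which carries the tagged mutant protein, was compared with the same parental libraries. Here 15 of 32 members were lower and 1 higher, against 13.7% of all genes lower and 10.9% higher, with medians of -0.30 over the members and -0.04 over all genes. By role, 7 of 16 effectors, both RNA sensors, 4 of 6 ISG15 and ADP-ribosylation genes and 2 of 6 transcription factors were lower, and 1 of 2 receptors was higher. IFI6 differed by -1.79 ± 0.17 (adjusted p = 0.00026 by limma), MX2 by -1.39 ± 0.13 and IFI35 by -1.15 ± 0.13. HERC6 (-0.98), DHX58 (-0.86) and ISG20 (-1.32) completed the 6 with the lowest p, and 4 members in all reached -1 or beyond, as did 2.02% of all genes. IFNAR1 was higher by 0.36 ± 0.09.

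OAS3 did not follow the others in that line, at +0.16 ± 0.20. IFIT2 (-0.45 ± 0.15, adjusted p = 0.055 by limma), IFNGR1 (+0.28 ± 0.13) and IFIT3 (+0.28 ± 0.13) had the largest differences that did not pass. The count of 16 members called fell to 7 without the mutant degron library with Shld, to 10 without the one without Shld and to 9 without the parental library with Shld. The 7 members called in all 8 omissions were IFI6, MX2, IFI35, HERC6, DHX58, ISG20 and IFI44.

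**Figure D2:**
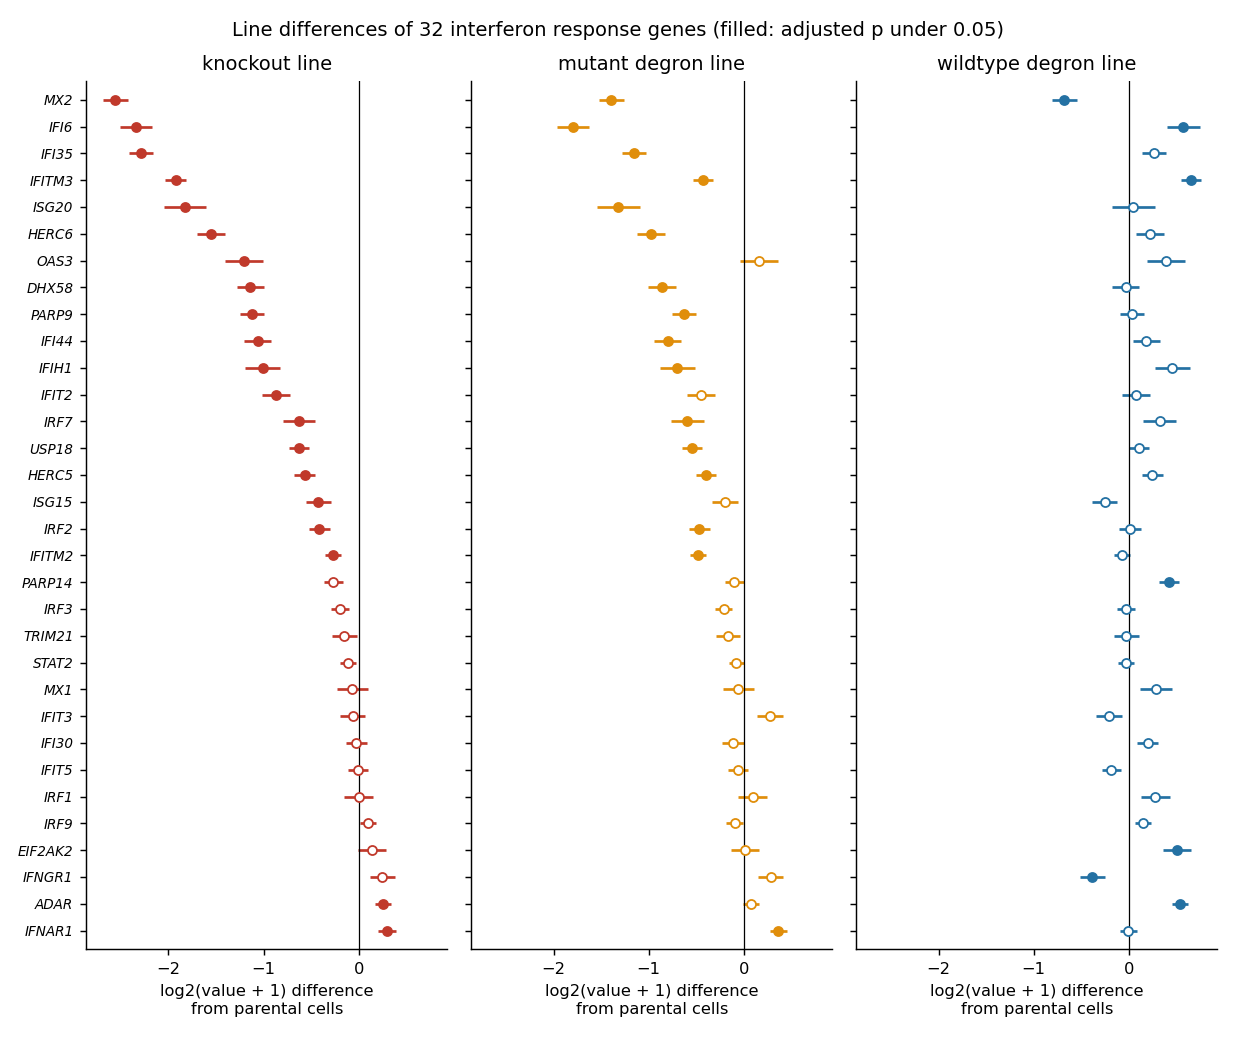
Differences of 32 members from parental cells in the knockout, mutant degron and wildtype degron lines, on the log2(value + 1) scale (horizontal axis). Points are estimates over 2 libraries per line, bars are standard errors of the limma model, and filled points have an adjusted p under 0.05; 18, 15 and 2 members are lower and 2, 1 and 5 higher in the 3 lines.

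The wildtype degron line gave a different picture against the same parental libraries. In it 5 of 32 members were higher (15.6%) and 2 lower (6.25%), against 20.5% and 20.9% of all genes. Neither share was above that over all genes. The median was +0.13 over the members and 0.00 over all genes. Of 16 effectors 4 were higher and 1 lower, 1 of 6 ISG15 and ADP-ribosylation genes was higher, 1 of 2 receptors was lower, and no RNA sensor or transcription factor passed. IFITM3 was higher by 0.65 ± 0.11 (adjusted p = 0.0028 by limma), ADAR by 0.54 ± 0.09, EIF2AK2, the double-stranded RNA kinase PKR, by 0.51 ± 0.15, PARP14 by 0.42 ± 0.10 and IFI6 by 0.57 ± 0.17. MX2 differed by -0.68 ± 0.13 and IFNGR1 by -0.38 ± 0.13. IFIH1 (+0.46 ± 0.19), OAS3 (+0.39 ± 0.20) and IRF7 (+0.32 ± 0.17) had the largest differences that did not pass. Of the 7 called members, 3 were still called without the parental library with Shld, 3 without the wildtype degron library without Shld, 4 without the one with Shld and 4 with no filter on low values, and ADAR, IFITM3 and MX2 were called in all 8 omissions.

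**Figure D3:**
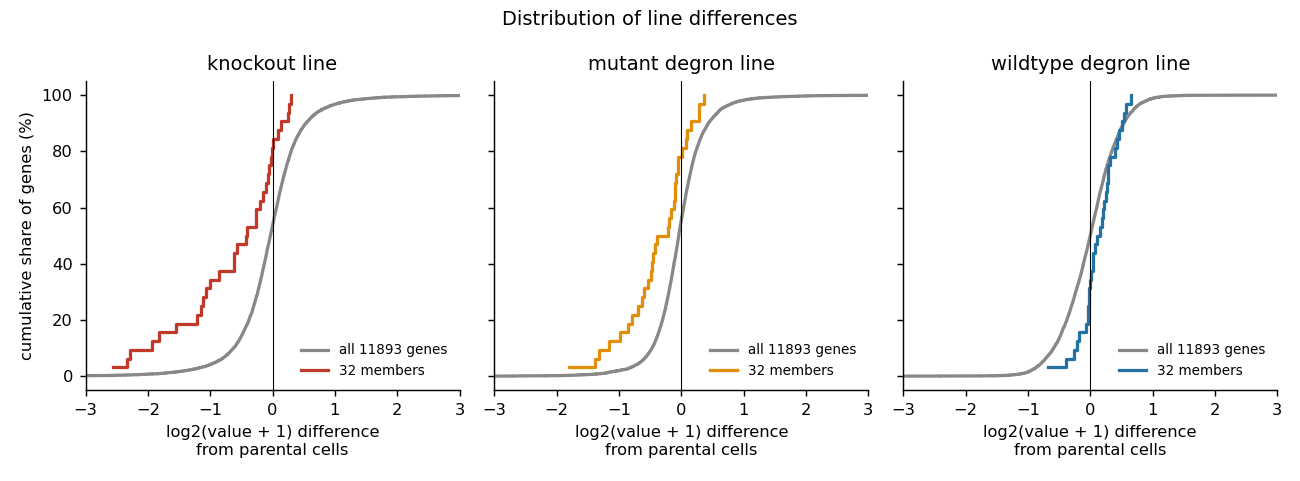
Cumulative share of genes (vertical axis, %) against the difference from parental cells on the log2(value + 1) scale, for 32 members (coloured) and all 11893 genes tested (grey). The member curves lie to the left of the grey curve in the knockout and mutant degron lines, with medians of -0.42 and -0.30, and mostly to the right in the wildtype degron line, with a median of +0.13.

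The derived lines were also compared directly. Between the knockout and mutant degron lines, 6 of 32 members were lower in the knockout line and 0 higher, against 6.11% and 5.86% of all genes. These were IFITM3 (-1.50 ± 0.11, adjusted p = 0.00010 by limma), OAS3 (-1.37 ± 0.20), MX2 (-1.17 ± 0.13), IFI35 (-1.14 ± 0.13), HERC6 (-0.58 ± 0.15) and PARP9 (-0.49 ± 0.13). With each of the 8 libraries left out in turn, the first 4 were called every time, HERC6 in 3 omissions and PARP9 in 1, with adjusted p up to 0.22 and 0.20 by limma. IFI6 did not pass at -0.55 ± 0.17 (adjusted p = 0.074 by limma), nor did IFIT2 (-0.41) or ISG20 (-0.51). A difference of -1 or beyond was reached by 4 of 32 members, all of them called, and by 1.59% of all genes.

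The wildtype degron line against the mutant degron line gave 21 members higher and 3 lower, against 26.5% and 23.2% of all genes. IFI6 (+2.37 ± 0.17, adjusted p = 4.05e-05 by limma), IFI35 (+1.42), IFITM3 (+1.08), HERC6 (+1.20), IFI44 (+0.98) and IFIH1 (+1.16) had the lowest p. The 3 lower members were both receptors, IFNGR1 (-0.67) and IFNAR1 (-0.37), and IFIT3 (-0.49). MX1 (+0.34 ± 0.17), OAS3 (+0.23 ± 0.20) and IRF3 (+0.19 ± 0.09) had the largest differences that did not pass. The knockout line against the wildtype degron line gave 18 lower and 2 higher, against 25.1% and 23.8% of all genes, with IFITM3 (-2.58), IFI35 (-2.56), IFI6 (-2.92), MX2 (-1.88), HERC6 (-1.78) and PARP9 (-1.16) of lowest p. The higher members were IFNGR1 (+0.64) and IFNAR1 (+0.30), and EIF2AK2 (-0.36 ± 0.15), MX1 (-0.35 ± 0.17) and IRF1 (-0.28 ± 0.15) did not pass.

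The order of lines was then counted over all members, a count chosen after the values had been seen and given with no test. In 18 of 32 members (56.2%) all 4 knockout and mutant degron libraries lay below all 4 parental and wildtype degron libraries, a pattern met by 16.3% of all genes. The lowest of the upper 4 libraries was 3.30 times the highest of the lower 4 for IFI6, 2.42 times for HERC6 and 2.29 times for ISG20, and only 1.04 times for PARP14 and IRF3. The stricter order of knockout, mutant degron, parental and wildtype degron with no overlap was met by 8 of 32 members (25%) and by 3.2% of all genes. Those 8 were IFI6, IFI35, IFI44, IFITM3, IFIH1, HERC5, HERC6 and PARP14.

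The IFITM genes, neighbouring and closely related, did not move as a block. IFITM3 ranged from 15.7 to 115 over the 8 libraries and IFITM2 only from 198 to 302, while IFITM1 stayed between 0.365 and 1.22. IFITM2 was lower in both the knockout (-0.27 ± 0.08) and the mutant degron line (-0.48 ± 0.08), and the 2 lines did not differ from each other past the threshold (+0.21 ± 0.08 for the knockout line less the mutant degron line, adjusted p = 0.14 by limma). How reads shared by near-identical copies were counted is not given in the sources used here, so the split between these genes is uncertain.

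Shld withdrawal was examined within each line. No member passed the test in the knockout, mutant degron or wildtype degron line (limma, 0 of 32 in each), where 0.0757%, 0.0757% and 0.0673% of all genes did. With 1 library per state, the spread came from the parental pair alone, and each library of the other lines was assumed to vary like that pair. At an unadjusted p under 0.05 there were 4, 1 and 1 members, and 11.5%, 2.07% and 4% of all genes. The median difference over the 32 members, without minus with Shld, was +0.05 in parental cells, +0.15 in the knockout line, +0.03 in the mutant degron line and +0.03 in the wildtype degron line.

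On withdrawal the 32 members ranged in the mutant degron line from -0.40 (ISG20) to +0.28 (ISG15). ISG20 was 5.39 with and 3.84 without Shld there (-0.40 ± 0.17, unadjusted p = 0.048 by limma), and EIF2AK2 and IFI6 stood at -0.31 ± 0.15 and +0.27 ± 0.16. The 95% interval for IFI6 ran from -0.10 to +0.64, with 1 library per state. In the wildtype degron line OAS3 (-0.53 ± 0.24), IRF7 (+0.50 ± 0.18) and IFI6 (+0.34 ± 0.16) had the largest differences. In the knockout line these were ISG20 (+0.72 ± 0.17, adjusted p = 0.20 by limma), IFIH1 (+0.48 ± 0.23) and IFI6 (+0.41 ± 0.16).

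The difference in withdrawal between the wildtype and mutant degron lines was tested as well, and 0 members passed, as against 0.0336% of all genes. At an unadjusted p under 0.05 there was 1 member, IRF7 (+0.60 ± 0.25), and OAS3 and ISG20 stood at -0.63 ± 0.34 and +0.55 ± 0.24. In the test of Shld over all 4 lines 0 members and 0% of all genes passed by limma, with 2 members and 5.78% of all genes at an unadjusted p under 0.05. Those 2 were IFI6 (+0.29 ± 0.07, adjusted p = 0.78 by limma), higher without Shld in 4 of 4 lines including the parental cells, and IFITM3 (+0.15 ± 0.06). IRF7 stood at +0.17 ± 0.11.

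**Figure D4:**
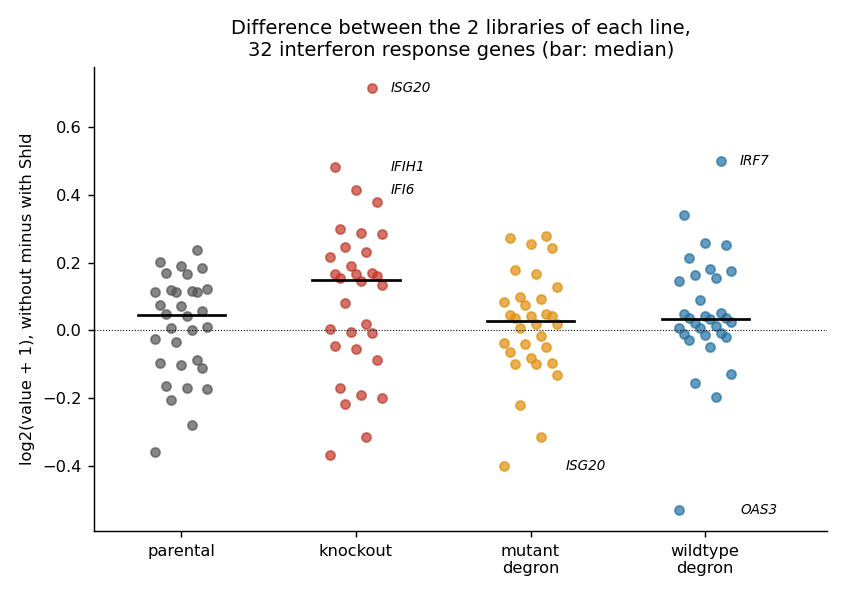
Difference between the library without and the library with Shld in each line, on the log2(value + 1) scale (vertical axis), with 1 point per member and a bar at the median of 32. The medians lie between +0.03 and +0.15, and the named genes differ by at least 0.4 in their line; none passed the test.

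The rest of the pathway was described from 5 lists holding 148 genes. Their counts, like those of the cell type markers after them, stand against all genes tested, of which 20.5% were lower and 17.3% higher in the knockout line (median -0.04), 13.7% and 10.9% in the mutant degron line (median -0.04), and 20.9% and 20.5% in the wildtype degron line (median 0.00). Of 35 tested genes in a list of other interferon-stimulated genes, 15 were lower (42.9%) and 4 higher (11.4%) in the knockout line than in parental cells (median -0.29). In the mutant degron line 7 were lower (20%) and 3 higher (8.57%, median -0.17), and in the wildtype degron line 3 were lower (8.57%) and 12 higher (34.3%, median +0.07). In the knockout line the largest were UBE2L6, the ISG15-conjugating enzyme (-1.28 ± 0.20), PARP12 (-1.22 ± 0.12), TRIM34 (-1.02 ± 0.13) and C19orf66 (-0.99 ± 0.10). PARP12 stood at 7.63 and 6.94 in parental cells, 2.58 and 2.53 in the knockout line, 3.07 and 3.55 in the mutant degron line, and 8.09 and 8.91 in the wildtype degron line, the same order of lines as IFI6. For the mutant degron line they were CASP4, an inflammatory caspase (-1.18), PARP12 (-0.94), C19orf66 (-0.85) and TOR1B (+0.64). In the wildtype degron line PARP10 (+1.32 ± 0.14), HELZ2 (+1.03 ± 0.10), LGALS3BP (+0.97 ± 0.12) and CD274, which encodes PD-L1 (-0.87), were the largest.

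Of 13 tested genes of interferon receptor signalling, 2 were lower and 2 higher in the knockout line (15.4% each), 2 lower (15.4%) and 0 higher in the mutant degron line, and 1 lower (7.69%) and 5 higher (38.5%) in the wildtype degron line. IRF5 and IRF4, regulators best known from immune cells, differed by -1.58 ± 0.16 and -1.33 ± 0.13 in the knockout line and by -1.45 ± 0.16 and -1.66 ± 0.13 in the mutant degron line. IRF4, which also acts with MITF on TYR in pigment cells, was higher by 1.25 ± 0.13 in the wildtype degron line. Of 16 tested genes of nucleic acid sensing, 3 were lower and 3 higher in the knockout line (18.8% each, near the shares over all genes), 0 either way in the mutant degron line, and 3 lower (18.8%) and 5 higher (31.2%) in the wildtype degron line. MAVS, the adaptor of the RNA sensors, was higher by 0.76 ± 0.11 in the wildtype degron line.

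Of 7 tested genes of antigen presentation driven by interferon gamma, 3 were lower (42.9%) and 0 higher in the knockout line, 1 lower and 1 higher in the mutant degron line (14.3% each), and 2 lower (28.6%) and 1 higher (14.3%) in the wildtype degron line. The shares in both degron lines were near those over all genes. NLRC5, the transactivator of MHC class I genes, differed by -1.17 ± 0.17 in the knockout line and by -1.06 ± 0.17 in the mutant degron line. B2M, the light chain of MHC class I, differed by -0.57 ± 0.14 in the knockout line and by -0.94 ± 0.14 in the wildtype degron line, so it did not follow the order of IFI6.

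Markers of the melanocyte lineage differed between the same lines. The summed level of the 9 measured markers was 11983 and 13008 in parental cells, 7283 and 6524 in the knockout line, 7551 and 9163 in the mutant degron line, and 15564 and 14276 in the wildtype degron line. Against parental cells 8 of the 9 were lower in the knockout line (median -1.12) where 20.5% of all genes were, 4 were lower in the mutant degron line where 13.7% of all genes were, and 4 were higher and 1 lower in the wildtype degron line where 20.5% and 20.9% of all genes were. The part of this difference between lines in the interferon gene levels was not tested, and in bulk RNA fewer cells of a type and less RNA per cell cannot be told apart. Among 5 measured immune markers CD3E was listed at 0 in every library, HLA-DRA did not exceed 0.107 and PTPRC stayed between 0.232 and 1.22, while CD68 lay between 638 and 833. Summed endothelial and epithelial markers did not exceed 0.0759 and 0.759. Of the 3 measured fibroblast markers, COL1A2 and DCN did not exceed 0.0417 and 0.273 in any library. LUM was highest in parental cells, at 29.6 and 20.7, and lowest in the knockout line, at 1.66 and 1.61. The part of LUM was not tested.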

How the data were processed

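RNA of 8 MEL202 libraries was sequenced from TruSeq libraries on a HiSeq instrument as paired reads, per the labels' protocols. TopHat, Cufflinks and hg19 are named in the submitters' processing notes, and their versions, the annotation and the use of strand are not stated by any source used here, so reads of overlapping or antisense genes cannot be told apart. The authors deposited 1 table of rescaled FPKM-type values with the 75th percentile of each library at 10. That FPKM was the input is inferred from the tools and values. An exact 0 may be a failed estimate and is given as listed. Read depth is unknown, and no interval for counting error can be given.

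Members were matched by gene name. The members and lists were chosen with earlier results of these data known. Values were taken as log2(value + 1) for named genes whose mean was 1 or more, with 1 locus per symbol and no small RNAs. Tests used limma 3.58.1 in R 4.3.3 with empirical Bayes moderation, a mean-variance trend and Benjamini-Hochberg adjustment over all 11893 genes at 0.05. Lines were compared over both Shld states (4 residual and 4.47 prior degrees of freedom), withdrawal within a line used the spread of the parental pair (1 and 6.08), and Shld over all lines had the line as covariate (3 and 5.19). Separate cultures are not stated, and the p-values reflect only how much these libraries vary, which may be technical. All members over the minimum could be named, each comparison naming all those called or, above 12, the 6 of lowest p (for the knockout line all 20, beyond that rule), and the 3 largest that did not pass. Of other lists up to 4 called genes by size were named. The models were also run on simulated data, whose outcome is not given here, so the sensitivity of the withdrawal tests is not stated. Motif searches used Python 3.11.15 on RefSeq promoters of GRCh38.p14, another build than that of the expression table, linked by symbol only. Alternatives changed the pseudocount, filter, scaling, loci, covariate and source of spread, and left out each library.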

Additional observations from a re-analysis of the deposited data

How the results depend on the processing

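In the comparisons between lines, no called member reversed its direction with any 1 library left out or with any other alternative run. Pseudocounts of 0.1 and 5, no filter on low values, quantile normalization, median ratio scaling (factors 0.992 to 1.02), all loci in place of 1 per symbol, the Shld state as covariate and the spread of the parental pair alone kept every count of called members within 1.5 times. The count does not say which members: with no filter on low values, 4 of the 7 members called in the wildtype degron line against parental cells were still called. With a mean of at least 5, only 21 members could be tested, and 11 were called in the knockout line against parental cells, 9 in the mutant degron line, 11 between the knockout and wildtype degron lines and 2 between the knockout and mutant degron lines. With each library left out in turn, the count ran from 15 to 17 for the knockout line against parental cells, from 7 to 17 for the mutant degron line and from 3 to 9 for the wildtype degron line, and the lone library of a line was then assumed to vary like the others. It ran from 17 to 22 for the knockout against the wildtype degron line, from 4 to 8 for the knockout against the mutant degron line and from 17 to 24 between the degron lines. The withdrawal comparisons called 0 members under every alternative run, including each line left out of the test over all lines. The only pairing in this design is by line and Shld state, which the test over all lines and the fit with the Shld state as covariate use; with 1 library per combination no replicate numbers pair libraries across groups. Depth is unknown, so how far low members such as OAS3, MX2 and IFIH1 are limited by counting could not be measured.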
